A study of Mus musculus with 4 samples.

Results

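Of the 17505 genes measured in irradiated mouse intestine, 10 are markers of the cells from which the intestinal epithelium is rebuilt, and their levels are given here gene by gene. The set was drawn up by name from known stem cell markers, with earlier results of these data known. It holds 8 genes of crypt base columnar (CBC) stem cells (Olfm4, Lgr5, Smoc2, Nrg4, Prom1, Tnfrsf19, Rgmb and Cdca7) and 2 genes used for reserve stem cells (Hopx and Bmi1). RNA came from 4 libraries, 2 of wild-type (WT) and 2 of Vil-CREPT-KO mice, all on the C57BL/6 strain, all exposed to 10 Gy of X-rays and sampled 3 days later. In Vil-CREPT-KO mice a Cre recombinase driven by the villin promoter removes exon 3 of CREPT (gene symbol Rprd1b, a regulator that binds RNA polymerase II) in gut epithelial cells, so other cells of the tissue keep the gene. The study worked with mice 6 to 8 weeks old. The labels call the control wildtype and do not say whether it carried floxed alleles. No unirradiated library is part of the comparison, so every value describes irradiated tissue.

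CBC stem cells sit between the Paneth cells at the bottom of the crypt, divide often and depend on Wnt and R-spondin signals, which they receive through receptors of the LGR family, and on Notch signals from their neighbours. Radiation kills many of them, and the crypt is then refilled by surviving stem cells, by slowly cycling reserve cells just above the crypt base and by daughter cells that return to the stem cell state. The genes of the set serve in different places: Olfm4, Smoc2 and Nrg4 encode secreted or ligand proteins, Lgr5, Prom1, Tnfrsf19 and Rgmb proteins of the cell surface, and Cdca7, Hopx and Bmi1 nuclear proteins.

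Levels are FPKM, fragments scaled to the length of the transcript and to the mapped fragments of the library, so that levels can be compared between genes. The spacing of low values put the depth of the libraries at about 17900000 to 18600000 fragments. Rprd1b, counted over the whole gene and not over the deleted exon, had 4.01 and 3.93 FPKM after deletion and 5.99 and 7.19 FPKM in WT, a difference short of the threshold (log2 fold change -0.61, limma adjusted p = 0.129). Genes of other tissues also differed between the groups or between libraries, and with this design genotype and the tissue taken cannot be told apart. Summed FPKM of 11 stomach and gland mucous genes reached 0.067% and 0.28% of the mean of WT in Vil-CREPT-KO 1 and 2, and 11 pancreatic acinar genes stood at 1.23% and 75.8%, against 158% and 42.0% in WT 1 and 2. The expression profiles of Vil-CREPT-KO 1 and 2 correlated across genes at 0.955, below the 0.985 of WT 1 and 2.

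In WT the order of levels was Prom1 (107 FPKM on average), Hopx (39.8), Olfm4 (22.0), Smoc2 (20.7), Bmi1 (9.54), Rgmb (7.13), Cdca7 (6.22), Nrg4 (3.76), Tnfrsf19 (1.52) and Lgr5 (0.51). Neighbours in this order overlapped between libraries at 2 places, Olfm4 with Smoc2 and Rgmb with Cdca7. In Vil-CREPT-KO the order changed chiefly by the descent of 2 genes, Olfm4 from rank 3 to rank 7 and Nrg4 from rank 8 to rank 10. Prom1 with Hopx, Smoc2 with Bmi1, and Lgr5 with Nrg4 overlapped there. Olfm4 was above 82.5% of all genes in WT and above 39.9% in Vil-CREPT-KO.

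**Figure D1:**
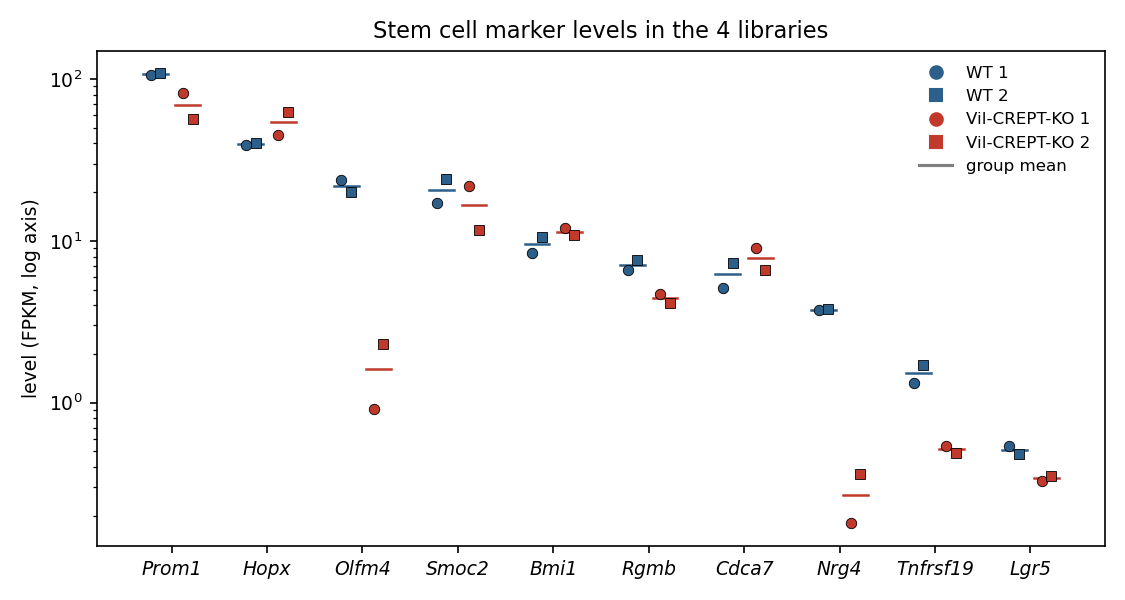
Level of each stem cell marker in FPKM on a log axis, with a point for each library and a bar for the group mean, ordered by the WT mean. Olfm4 and Nrg4 show the widest gap between the groups, with Vil-CREPT-KO at 0.91 and 2.32 against 20.05 and 23.86 FPKM for Olfm4, while Smoc2 and Cdca7 overlap.

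The groups were compared with limma on log2(FPKM + 1) over the 11621 genes averaging 1 FPKM or more. A call needed a Benjamini-Hochberg adjusted p below 0.05 and a log2 fold change beyond 1 in either direction, which 2.07% of these genes met. Of the 10 markers 9 entered this test and Lgr5 fell under the filter. Olfm4 and Nrg4 were called lower, which is 2 of the 9 (22.2%), against 1.69% of all tested genes. No marker was called higher, against 0.387% of all tested genes, and 5 of the 9, all of them lower, had an unadjusted p under 0.05, against 20.2% of all tested genes in either direction. For 5 of 9 markers neither Vil-CREPT-KO library reached the lower WT library (55.6%, against 22.1% of all tested genes), for 2 of 9 both exceeded the higher WT library (22.2%, against 31.9%), and 2 overlapped. The median log2 fold change was -0.58 over the 9 and 0.059 over all tested genes. These shares describe a short list and support nothing further, since Nrg4 and Tnfrsf19 passed the filter only through their WT level. With 2 libraries against 2, an exact two-sided permutation test cannot give a p below 0.333, so each adjusted p below rests on the spread that limma shares between genes.

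**Figure D2:**
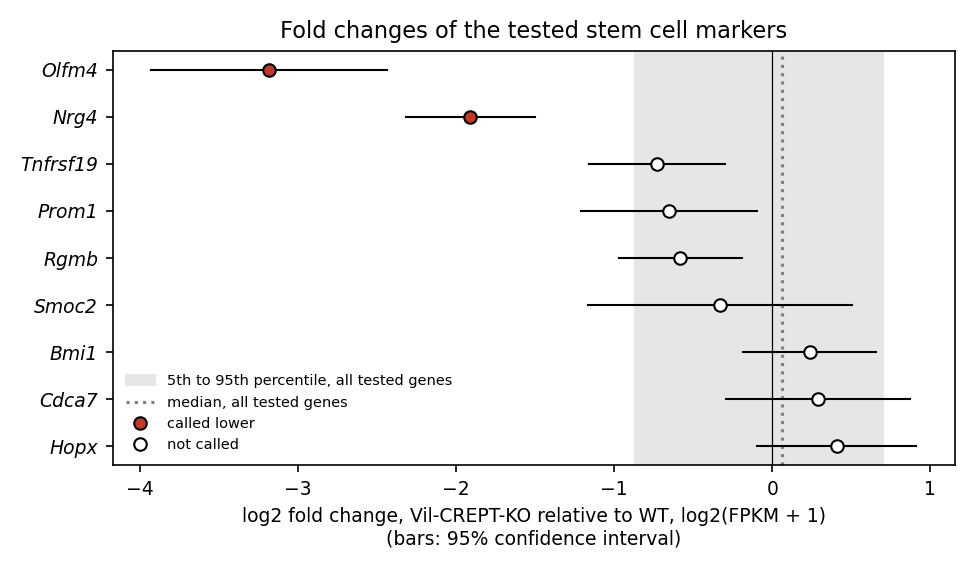
Log2 fold change of each tested marker, Vil-CREPT-KO relative to WT, with its 95% confidence interval, over a grey band from the 5th to the 95th percentile of all tested genes (-0.871 to 0.70). Olfm4 and Nrg4, the called genes in red, lie outside the band, and the other 7 estimates lie within it.

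Olfm4 (gene ID 380924, chromosome 14, 80000302 to 80023141, GRCm38.p6) encodes olfactomedin 4, a secreted glycoprotein that is among the most abundant transcripts of CBC stem cells and a Notch target. It measured 0.91 and 2.32 FPKM in the respective Vil-CREPT-KO libraries 1 and 2, whereas WT 1 and 2 had 23.86 and 20.05 FPKM. Both Vil-CREPT-KO libraries were far below both WT libraries. The mean fell from 22.0 ± 2.69 (SD, n = 2) to 1.62 ± 0.997 FPKM (SD, n = 2), 13.6-fold, with 24.1-fold against Vil-CREPT-KO 1 alone and 9.46-fold against Vil-CREPT-KO 2 alone. Its log2 fold change was -3.18 (SE 0.29, 95% interval -3.93 to -2.44, limma adjusted p = 0.0162). The call was lost when WT 1 or WT 2 was left out (limma adjusted p = 0.294 and 0.212, log2 fold change -3.06 and -3.30) and when low genes were not filtered (0.0602), and over all settings the limma adjusted p ran from 9.31e-13 to 0.294. In bulk tissue, fewer cells of a type and less RNA per cell cannot be told apart, here and for the genes that follow.

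Nrg4 (gene ID 83961, chromosome 9, 55220222 to 55283654) encodes neuregulin 4, an EGF family ligand of the receptor ErbB4. Its levels were 0.18 and 0.36 FPKM in Vil-CREPT-KO, against 3.72 and 3.8 FPKM in WT. The WT libraries were nearly equal and the Vil-CREPT-KO libraries were close to the lower end of the measured range. The mean went from 3.76 ± 0.057 to 0.27 ± 0.127 FPKM (SD, n = 2 each), a 13.9-fold fall, with 20.9-fold against Vil-CREPT-KO 1 and 10.4-fold against Vil-CREPT-KO 2. On the log2(FPKM + 1) scale, which understates changes of low genes, the fold change was -1.91 (SE 0.16, 95% interval -2.32 to -1.50, limma adjusted p = 0.0130). A pseudocount of 5 brought it to -0.73, short of the fold threshold, and leaving out WT 1 or WT 2 brought the limma adjusted p to 0.272 and 0.201, within a range from 1.04e-08 to 0.272 over all settings. In fold of the means Nrg4 fell as far as Olfm4, from a WT level that was lower.

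The promoters of these 2 genes are shown because they carry the called changes. They run from 250 bases before to 50 bases after the transcript start that the RefSeq table (GRCm38.p6) uses, on the strand of the gene. That start is the end of the gene span given above for Olfm4 and lies 29 bases inside it for Nrg4. Capitals mark the matches to the motifs searched, which were ACAAAG and TCAAAG (TCF/LEF core, the Wnt factors), TGGGAA (core of the Notch factor RBPJ) and CAGCTG (an E-box), on both strands.
Olfm4 promoter, chr14:80000052-80000351, plus strand: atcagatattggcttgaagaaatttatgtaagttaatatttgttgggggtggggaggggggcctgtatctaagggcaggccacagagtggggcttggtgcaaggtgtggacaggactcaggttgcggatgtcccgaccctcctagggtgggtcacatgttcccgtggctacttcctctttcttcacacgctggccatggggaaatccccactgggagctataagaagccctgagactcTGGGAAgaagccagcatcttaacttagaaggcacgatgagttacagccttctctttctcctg
Nrg4 promoter, chr9:55283576-55283875, minus strand: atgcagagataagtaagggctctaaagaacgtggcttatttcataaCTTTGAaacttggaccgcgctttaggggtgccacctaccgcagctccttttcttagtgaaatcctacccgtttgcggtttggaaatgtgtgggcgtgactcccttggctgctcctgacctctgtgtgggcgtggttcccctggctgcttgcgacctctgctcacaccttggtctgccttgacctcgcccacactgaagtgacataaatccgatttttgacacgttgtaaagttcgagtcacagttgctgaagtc
In Olfm4 the match is TGGGAA, 12 bases before the start. Letters of this kind are found in 25.5% of 27025 promoters of the same length, taking the first promoter listed for each gene. In Nrg4 it is CTTTGA, the reverse complement of TCAAAG, 204 bases before the start, found in 16.2% of promoters. Neither window held ACAAAG, present in 18.7%, or CAGCTG, present in 16.1%. Of the other markers with a promoter in the table, none of them called, TGGGAA was also found for Prom1, Cdca7 and Bmi1, TCAAAG for Prom1 and Tnfrsf19, ACAAAG for Rgmb, and CAGCTG for Tnfrsf19 and Hopx. The matches of Tnfrsf19 and Rgmb and the TCAAAG of Prom1 lay in a further promoter of the gene, which the shares above do not cover. A match is a description of the letters and shows no binding.

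Notch signals feed into Olfm4. Of 10 tested receptors, ligands and targets of the Notch pathway limma called 0, against 2.07% of all tested genes. In limma, 1 had an unadjusted p under 0.05, in the higher direction, against 20.2% in either direction (median log2 fold change 0.26, 3 below 0). These shares over all genes also apply to the lists below. Of 11 measured genes 1, Nrarp, had both Vil-CREPT-KO values under the lower WT value (3.00 and 2.26 against 3.49 and 4.31 FPKM). For 5 both were over the higher WT value. Over all tested genes these shares were 22.1% and 31.9%. Hes1, the effector that Notch switches on, measured 25.67 and 16.29 FPKM in Vil-CREPT-KO, against 14.23 and 19.40 FPKM in WT. Atoh1, the secretory lineage factor that Notch holds down, was at 7.26 and 5.30 FPKM against 7.09 and 5.28 FPKM. The groups overlapped for both genes, and the direction of either estimate changed with the processing. Among the relatives of Olfm4 in the olfactomedin family 3 of 7 were tested and limma called 0, with 0 at an unadjusted p under 0.05 (median 0.58). The most abundant, Olfml3 and Olfm1, measured 13.91 and 6.56 FPKM and 6.31 and 4.29 FPKM in Vil-CREPT-KO, overlapping their WT values of 4.36 and 6.83 FPKM and 3.33 and 5.29 FPKM. Olfm4 is also a gene of neutrophil granules. In the neutrophil list 6 of 11 measured genes had both Vil-CREPT-KO values over the higher WT value, against 31.9% of all tested genes. For 1 gene both were under the lower WT value, against 22.1%. These counts include genes under the filter. The median log2 fold change of the 6 tested was 1.26. The gene with both values lower was Ltf, the granule protein lactoferrin, which was called lower at 13.88 and 12.63 FPKM against 37.81 and 34.69 FPKM (log2 fold change -1.39, limma adjusted p = 0.0208). Camp and Ngp, which define that granule type, were at most at 0.30 FPKM in any library. The summed level of the list, most of it Ltf in WT, was 133% of the WT mean for Vil-CREPT-KO 1 and 67.4% for Vil-CREPT-KO 2.

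The 5 genes whose profile over the 4 libraries was most like that of Olfm4, by the Euclidean distance between centred log2(FPKM + 1) values, were Slc9a4 (distance 0.317), Sult1c2 (0.325), Ttr (0.351), Hgfac (0.426) and Tesc (0.460). They share with Olfm4 a fall in both Vil-CREPT-KO libraries, which the choice by likeness fixes. Slc9a4, a sodium and proton exchanger of gastric parietal cells, was at 0.33 and 0.72 FPKM against 13.07 and 10.74 FPKM. Ttr, the thyroid hormone carrier transthyretin, was at 0.13 and 1.48 FPKM against 18.99 and 15.53 FPKM. Hgfac, the protease that activates hepatocyte growth factor, was at 6.70 and 9.38 FPKM against 66.54 and 60.91 FPKM. Genes of the stomach list had the same direction, with 11 of 11 called lower, against 1.69% of all tested genes. Their part in the fall of Olfm4 and Nrg4 was not tested.

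The other ligands and receptors around Nrg4 gave a different picture. Of 4 tested ErbB receptors and neuregulins 0 were called lower and 1 higher, against 1.69% and 0.387% of all tested genes. That gene was Nrg1, a neuregulin made largely by stromal cells, at 7.15 and 9.02 FPKM in Vil-CREPT-KO, against 2.38 and 2.97 FPKM in WT. It rose 3.02-fold (log2 fold change 1.30, limma adjusted p = 0.0403), so that the 2 neuregulins stood on opposite sides of 0, -1.91 for Nrg4 and 1.30 for Nrg1. The Nrg1 call was lost in 9 of 19 alternative settings (limma adjusted p between 0.0161 and 0.36 over them). Summed fibroblast genes were at 205% and 117% of the WT mean after deletion, against 75.3% and 125% in WT 1 and 2, and their part in the Nrg1 value was not tested.

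Lgr5 (gene ID 14160, chromosome 10, 115450314 to 115587780), the R-spondin receptor that defines CBC cells, was the lowest of the 10 markers in WT. It measured 0.33 and 0.35 FPKM in Vil-CREPT-KO, against 0.54 and 0.48 FPKM in WT. All values of Vil-CREPT-KO were below those of WT, by 1.5-fold in the means. Over the lengths of its annotated coding transcripts this level corresponds to about 15 to 30 fragments in a Vil-CREPT-KO library and 22 to 47 in a WT library. Without the filter its log2 fold change was -0.17 (SE 0.06, limma adjusted p = 0.284), and with a pseudocount of 0.1 as well it was -0.47 (SE 0.23, 0.388), and a difference in Lgr5 was not detectable at this depth. Among 9 tested genes of the R-spondin and LGR axis limma called 0, with 0 at an unadjusted p under 0.05, and the median log2 fold change was -0.069. The Wnt co-receptor Lrp5 measured 17.40 and 16.42 FPKM in Vil-CREPT-KO, against 19.55 and 17.20 FPKM in WT. Grem1, a stromal BMP antagonist, was at 34.51 and 15.85 FPKM against 9.81 and 17.49 FPKM, and in both genes the groups overlapped.

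The 3 other surface proteins were lower in every Vil-CREPT-KO library than in either WT library, and none passed the threshold. Prom1 (gene ID 19126, chromosome 5, 43993621 to 44102047), the membrane protein CD133 of epithelial progenitors, measured 81.42 and 56.52 FPKM in Vil-CREPT-KO, against 106.03 and 108.52 FPKM in WT. Its mean ratio was 1.56-fold lower (log2 fold change -0.65, SE 0.22, 95% interval -1.21 to -0.10, limma adjusted p = 0.198). Tnfrsf19 (gene ID 29820, chromosome 14, 60963834 to 61046855), the receptor TROY of CBC cells, was at 0.54 and 0.49 FPKM against 1.32 and 1.72 FPKM. It was 2.95-fold lower in the means, the widest ratio after Olfm4 and Nrg4, with a log2 fold change of -0.73 (SE 0.17, 95% interval -1.16 to -0.30, limma adjusted p = 0.113). Rgmb (gene ID 68799, chromosome 17, 15804661 to 15831246), a co-receptor for BMP ligands, was at 4.72 and 4.14 FPKM against 6.60 and 7.65 FPKM, 1.61-fold lower (log2 fold change -0.58, SE 0.15, 95% interval -0.97 to -0.19, limma adjusted p = 0.137). All of these intervals exclude 0 before adjustment over genes. When the libraries were centred on 11 epithelial genes, Prom1 (-1.03, limma adjusted p = 0.0058) and Tnfrsf19 (-1.11, 0.00185) passed the threshold as well. The adjusted p of Prom1 ran from 0.0058 to 1 over all settings and that of Tnfrsf19 from 0.00185 to 1.

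In the families of these receptors no gene was called. All 11 genes of the TNF receptor list were tested and limma called 0, with 1 at an unadjusted p under 0.05, in the higher direction (median log2 fold change 0.089, 2 below 0), and with Tnfrsf1a, the main TNF receptor, at 106.53 and 95.13 FPKM against 88.26 and 83.52 FPKM. Tnfrsf12a, the receptor for TWEAK, was at 92.23 and 66.07 FPKM against 44.13 and 44.86 FPKM. Both were above WT in each library, opposite in direction to Tnfrsf19, except that the estimate of Tnfrsf1a was -0.15 with epithelial centring. Of 17 tested genes of the BMP pathway limma called 0, against 2.07% of all tested genes. In limma, 7 had an unadjusted p under 0.05, against 20.2% of all tested genes. Of these 7, 6 were higher, against 1180 of 11621 over all genes (median 0.18). The BMP target Id1 was at 76.59 and 62.72 FPKM against 71.34 and 83.97 FPKM, and Id3 at 48.28 and 44.01 FPKM against 48.06 and 49.17 FPKM. Id2, the 1 gene of the list that was lower at an unadjusted p under 0.05, was at 15.64 and 17.71 FPKM against 33.86 and 49.65 FPKM. Its log2 fold change was -1.25 (limma adjusted p = 0.0668).

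Smoc2 (gene ID 64074, chromosome 17, 14279490 to 14404790), a secreted calcium-binding matrix protein of CBC cells, did not separate the groups. It measured 21.69 and 11.74 FPKM in Vil-CREPT-KO, against 17.18 and 24.20 FPKM in WT. The highest and the lowest WT value enclosed Vil-CREPT-KO 1, and Vil-CREPT-KO 2 lay below. The log2 fold change was -0.33 (SE 0.33, 95% interval -1.17 to 0.50, limma adjusted p = 0.604) and 0.084 without Vil-CREPT-KO 2. Smoc2 is also made by stromal cells, whose summed markers stood at 205% and 117% of the mean of WT, and their part in the Smoc2 level was not tested. Of 5 tested relatives in the SPARC family limma called 0, with 1 lower and 1 higher at an unadjusted p under 0.05 (median 0.71). The lower gene was Sparcl1. The higher gene was Smoc1, at 6.53 and 5.56 FPKM in Vil-CREPT-KO, against 2.27 and 3.44 FPKM in WT. Sparc, a matrix protein of fibroblasts, measured 98.65 and 54.23 FPKM in Vil-CREPT-KO, against 29.51 and 53.54 FPKM in WT. Sparcl1, a relative found in vessels and stroma, was at 17.59 and 13.03 FPKM against 28.00 and 57.02 FPKM. The family thus held differences in both directions, none of them called.

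Cdca7 (gene ID 66953, chromosome 2, 72476187 to 72486892), a chromatin protein that Myc induces and that works with the helicase Hells, overlapped between the groups too. It measured 9.03 and 6.59 FPKM in Vil-CREPT-KO, against 5.14 and 7.30 FPKM in WT (log2 fold change 0.29, SE 0.23, 95% interval -0.29 to 0.87, limma adjusted p = 0.517). Of 8 tested partners 0 were called lower and 1 higher, against 1.69% and 0.387% of all tested genes. The gene called was Myc itself, at 30.55 and 26.50 FPKM against 12.06 and 14.07 FPKM. Myc rose 2.18-fold (log2 fold change 1.07, limma adjusted p = 0.0471), close to both thresholds, and the call was lost in 12 of 19 alternative settings (limma adjusted p between 0.0179 and 0.49). The markers of cycling cells, among which Cdca7 is usually found, pointed the other way. In 12 of 18 such genes both Vil-CREPT-KO libraries were under the lower WT library and in 0 both were over the higher, against 22.1% and 31.9% of all tested genes, and the sums were 84.5% and 82.1% of the WT mean. limma called 0 of 17 tested, with 8 lower at an unadjusted p under 0.05, against 1171 lower of 11621 over all genes.

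The reserve markers were above WT in each Vil-CREPT-KO library, without passing the threshold. Hopx (gene ID 74318, chromosome 5, 77086986 to 77115123), an atypical homeodomain protein, measured 45.30 and 62.47 FPKM in Vil-CREPT-KO, against 39.27 and 40.36 FPKM in WT. The ratio of means was 1.35 (log2 fold change 0.41, SE 0.20, 95% interval -0.09 to 0.91, limma adjusted p = 0.319). Bmi1 (gene ID 12151, chromosome 2, 18677018 to 18686629), a subunit of the Polycomb repressive complex, was at 11.94 and 10.79 FPKM against 8.46 and 10.62 FPKM, a ratio of 1.19 (log2 fold change 0.24, SE 0.16, 95% interval -0.18 to 0.66, limma adjusted p = 0.467). Vil-CREPT-KO 2 exceeded WT 2 by little in Bmi1, and with the libraries centred on epithelial genes the log2 fold change was -0.14. Both genes are also expressed outside the crypt, Hopx for example in heart muscle and Bmi1 broadly. Of 16 tested genes of the Polycomb complex and its INK4 targets limma called 0, with 1 at an unadjusted p under 0.05 (median 0.058). The subunits Phc2 (24.21 and 22.86 FPKM against 22.37 and 22.36 FPKM) and Pcgf3 (20.20 and 24.77 FPKM against 20.14 and 16.17 FPKM) were the most abundant of them.

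Set side by side, the 8 CBC markers summed to 70.3% of the WT mean for Vil-CREPT-KO 1 and 48.8% for Vil-CREPT-KO 2, and the 2 reserve markers to 116% and 148%. The first sum is carried mainly by Prom1 and the second by Hopx, the most abundant gene of each. Of 7 tested CBC markers 6 had an estimate below 0, all but Cdca7, against 4946 of 11621 tested genes. Both reserve markers had an estimate above 0. With epithelial centring Cdca7 and Bmi1 were below 0. The difference between the sums was not tested.

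Other genes of the same cells were described from lists that do not hold the 10 markers, also chosen with earlier results of these data known. Of 22 tested CBC genes 2 were called lower and 0 higher, against 1.69% and 0.387% of all tested genes. The median log2 fold change was -0.225, and 15 of 22 were below 0, against 4946 of 11621 over all genes. In limma, 7 were lower and 3 higher at an unadjusted p under 0.05, against 1171 and 1180 of 11621. Kcne3, a potassium channel subunit, measured 40.36 and 28.80 FPKM in Vil-CREPT-KO, against 103.03 and 122.70 FPKM in WT (3.26-fold lower, log2 fold change -1.69, limma adjusted p = 0.0349). Slc12a2, the sodium, potassium and chloride cotransporter of crypt cells, was at 9.42 and 8.95 FPKM against 26.55 and 33.99 FPKM (3.30-fold lower, -1.61, limma adjusted p = 0.0229). For both, the Vil-CREPT-KO libraries lay well under WT, close together only in Slc12a2. The summed level of this list went the other way, to 238% and 157% of the WT mean, through the abundant glutathione peroxidase Gpx2 (3856 ± 1307 against 1337 ± 211 FPKM, SD, n = 2 each, limma adjusted p = 0.122), a gene named after its values were seen. Of 6 tested other reserve and injury-resistant genes 1 was called, lower, against 1.69% of all tested genes. Of the 6, 5 were below 0, against 4946 of 11621 over all genes, and the median log2 fold change was -0.495. Clu, the secreted chaperone clusterin that marks revival stem cells after injury, was at 241.60 and 241.98 FPKM against 895.57 and 666.32 FPKM (3.23-fold lower, -1.67, limma adjusted p = 0.0402). The direction of Clu was opposite to that of Hopx and, except with epithelial centring, to that of Bmi1. The calls of Kcne3 and Slc12a2 were each lost in 6 of 19 settings and that of Clu in 7, while the count of CBC genes called lower rose from 2 to 7 with epithelial centring and to 5 without Vil-CREPT-KO 1.

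**Figure D3:**
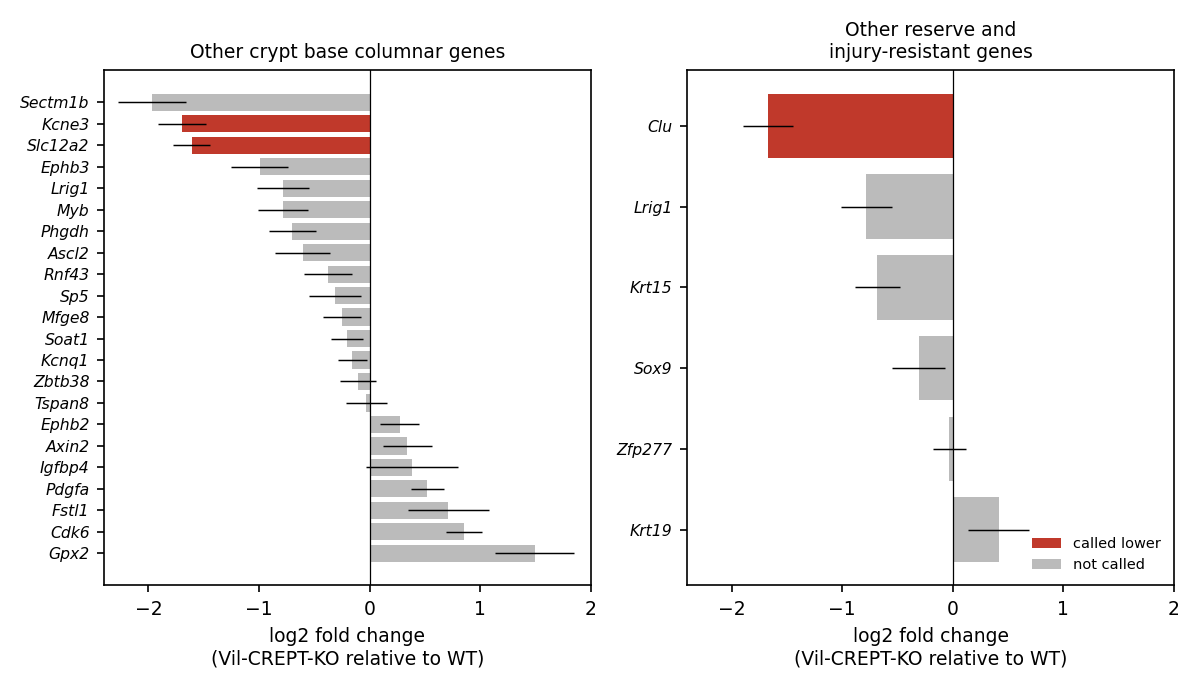
Log2 fold change, Vil-CREPT-KO relative to WT, of the tested genes of 2 lists, other CBC genes on the left and other reserve and injury-resistant genes on the right, with standard errors as bars and called genes in red. Kcne3, Slc12a2 and Clu are the called genes, Lrig1 belongs to both lists, and 15 of 22 CBC genes lie below 0, against 4946 of 11621 tested genes.

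The labels and methods name intestine as the material and a legend of the study names crypts, so the levels of other cells and gut regions are given beside the markers. Epithelial genes summed to 152% and 120% of their WT level in Vil-CREPT-KO 1 and 2, and Paneth cell genes to 543% and 214%. Most of the Paneth cell sum came from Defa17 and Defa24. Of 8 Paneth cell genes 6 were above WT in both libraries and 1 below, against 31.9% and 22.1% of all tested genes. The gene below was Habp2, called lower at 3.34 and 2.26 FPKM against 40.06 and 47.90 FPKM. Of 11 epithelial genes 8 were above and 1, Vil1, below. T and NK cell genes were at 39.7% and 46.3%, smooth muscle genes at 108% and 70.5%, and adipocyte genes at 196% and 108%. Among regional lists, duodenal and jejunal genes stood at 85.3% and 70.3%, ileal genes at 197% and 121%, and colonic genes at 77.2% and 74.0%. Each of these sums rests on few genes, mainly Apoa4 for the first, Slc51a and Slc51b for the second, and Slc26a3 and Mptx1 for the third. The other ileal genes, Fabp6, Fgf15, Slc10a2 and Cubn, were at most at 1.1 FPKM in any library, so the ileal sum does not show the region. Pdx1, the transcription factor of the proximal duodenum, measured 1.42 and 27.68 FPKM in Vil-CREPT-KO, against 43.21 and 41.03 FPKM in WT. From the same list, Slc40a1 was at 33.39 and 282.84 FPKM against 269.73 and 261.55 FPKM. Slc46a1 was at 91.50 and 260.17 FPKM against 272.50 and 297.00 FPKM. Apoa4 and Fabp1 were the genes of that list not lowest in Vil-CREPT-KO 1. Vil-CREPT-KO 1 had the lowest level of Pdx1, of the acinar genes, of Olfm4 and of Nrg4. In Vil-CREPT-KO 2 the acinar genes stood at 75.8% of the WT mean and the stomach and gland mucous genes at 0.28%. Olfm4 stood at 10.6% and Nrg4 at 9.57% in that library. The segment of gut is not given in the labels, and the part of such regional differences in the marker levels was not tested.

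**Figure D4:**
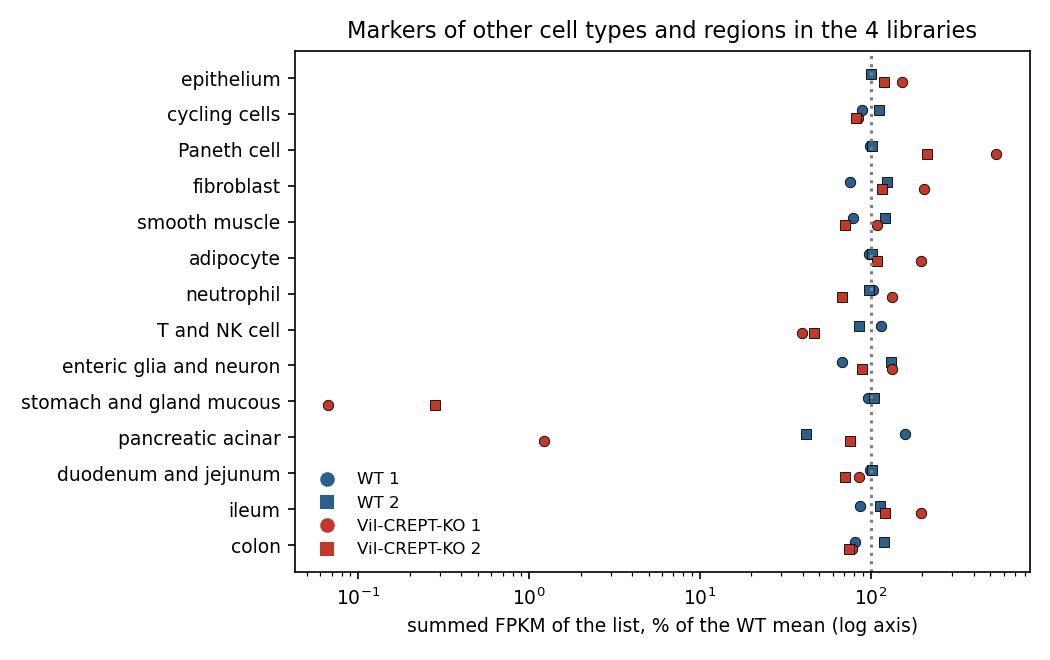
Summed FPKM of marker lists of other cell types and gut regions in each library, as a percentage of the WT mean on a log axis, with WT in blue and Vil-CREPT-KO in red. Stomach and gland mucous genes stand apart at 0.067% and 0.28% in Vil-CREPT-KO, and pancreatic acinar genes vary between libraries of the same group.

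The estimates of the called genes kept their direction under all 19 alternative ways of processing for Olfm4 (log2 fold change from -3.81 to -2.03) and all 18 that could be run for Nrg4 (from -3.43 to -0.73). Of the 7 other tested markers, Tnfrsf19, Prom1, Rgmb and Hopx also kept their direction, and Smoc2, Cdca7 and Bmi1 each changed it under 1 setting.

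**Figure D5:**
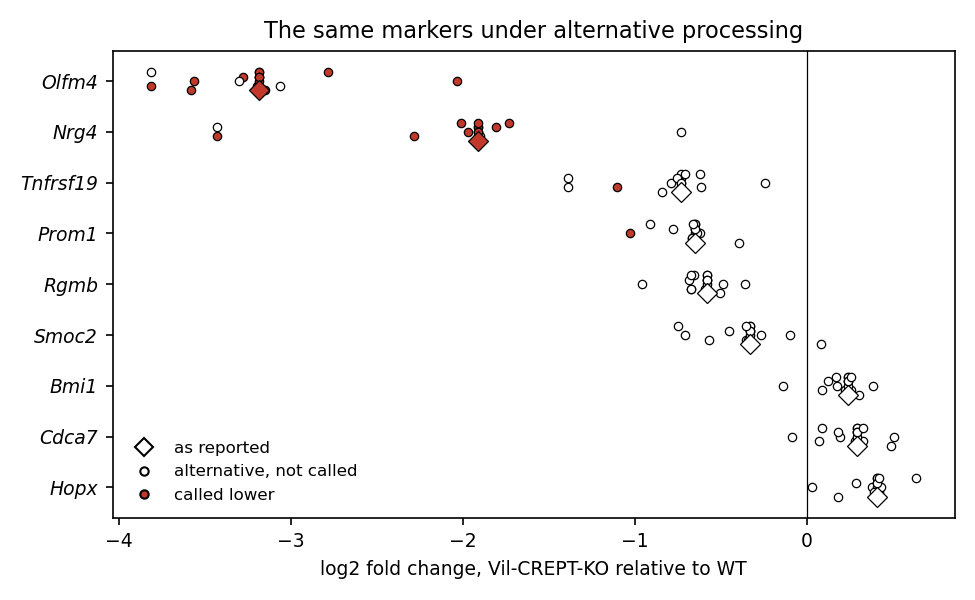
Log2 fold change of each tested marker as reported (diamonds) and under each alternative processing (circles), with called values in red. Olfm4 and Nrg4 stay below 0 in every setting, and Prom1 and Tnfrsf19 are called in 1 setting each.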

How the data were processed

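Intestinal RNA of irradiated mice was sequenced as 4 libraries, 2 for each genotype. The labels name neither the gut segment nor any isolation of crypts, while a legend of the study speaks of crypts, so the material is not settled. According to the study each replicate is a separate mouse, which the labels do not record. The authors deposited a table of FPKM values for 17505 genes. Per the study's methods, reads were mapped to GRCm38.p6 transcripts with Bowtie2 and quantified with RSEM, which splits reads of similar genes by estimate. HISAT and mm10 also appear in the submitters' processing notes, and no version of these tools is given in the sources used here. DESeq2 was the authors' own test, with the same thresholds as here. With FPKM alone, neither a count model nor a counting interval was used.

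FPKM values were used as log2(FPKM + 1). Genes averaging 1 FPKM or more were tested (11621, with 5884 below) with limma 3.58.1 in R 4.3.3, a variance trend, two-sided tests and Benjamini-Hochberg adjustment, on 2 residual and 3.08 prior degrees of freedom. Fold differences are ratios of mean FPKM. Gene IDs were matched to symbols and GRCm38.p6 coordinates in RefSeq (17473 of 17505). RefSeq promoters were found for 8 of the 10 markers. Depth was estimated from the steps between low values, and these steps were faint, so it is approximate.

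The markers and lists were chosen with earlier results of these data known. The genes named are the 10 markers, Rprd1b, up to 4 called genes of each pathway or stem cell list or its 2 most abundant where none was called, and the 5 profiles closest to Olfm4. Pdx1, Ltf, Camp, Ngp, Gpx2, Id2, Smoc1 and Nrarp fall outside this rule and were chosen after their values were seen. The same holds for the single genes of the epithelial, Paneth cell and regional lists named beside their sums. Of 283 list symbols 275 were measured.

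Each result was recomputed with 0.1 and 5 as pseudocount, without the filter or with one of 5 FPKM, after quantile normalization, after centring libraries on their median or on epithelial genes, after rescaling without stomach and pancreatic genes, without the variance trend, with robust moderation, on the adjusted p alone, against a fold of 1.5 (limma's treat), with a block for the replicate number, and without each library in turn. A block with crossed numbers, and no filter with a pseudocount of 0.1, were added after seeing the data.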

Additional observations from a re-analysis of the deposited data

How the results depend on the processing

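The 2 markers called lower became 1 at a pseudocount of 5 (Olfm4), 1 without the filter (Nrg4), 1 with a filter at 5 FPKM, which leaves Nrg4 untested, 4 with libraries centred on epithelial genes, 0 with no filter and a pseudocount of 0.1, and 0 to 2 when a library was left out, being 0 without WT 1 or WT 2. Over all genes, 196 lower and 45 higher calls became 120 and 21 at a pseudocount of 5, 73 and 5 without the filter, 972 and 100 with epithelial centring, 69 and 5 against a fold of 1.5, and 48 and 4 at a pseudocount of 0.1 without the filter. They ranged from 4 to 492 and from 0 to 408 when a library was left out. The lone library of a group is then assumed to vary like the other group. The cause of these changes was not tested, except that epithelial centring raised the prior degrees of freedom from 3.08 to 40.8 and moved the median log2 fold change of all genes from 0.059 to -0.318.

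With the replicate number as a block, the lower and higher calls were 108 and 14, with both markers still called. The numbers did not pair the libraries (correlation of deviations -0.264), and with the numbers crossed the calls were 254 and 92. Direction changed with epithelial centring for Cdca7 (-0.087), Bmi1 (-0.14), Atoh1 (-0.36), Hes1 (-0.092), Olfm1 (-0.12), Pcgf3 (-0.082), Phc2 (-0.31) and Tnfrsf1a (-0.15). It changed on rescaling without stomach and pancreatic genes for Atoh1 (-0.092) and Phc2 (-0.051). Leaving out a library gave ranges across 0 for Smoc2 (-0.75 to 0.084), Atoh1 (-0.18 to 0.21), Hes1 (-0.028 to 0.60) and Olfm1 (-0.0165 to 0.52). Of 418 counts of called genes over the other lists, 19 were higher and 34 lower than reported. The depth limits Lgr5, at 15 to 47 fragments a library.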
